A study of Mus musculus with 9 samples.

Results

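The genes described here are those named for the 3 interferon-induced ligands of the chemokine receptor CXCR3, Cxcl9, Cxcl10 and Cxcl11, together with Cxcl16, the gene of a transmembrane chemokine. They are 4 of the 55655 rows in each of 2 expression tables, and were found by matching the rows' Ensembl identifiers to gene symbols, which gave a symbol for 55154 rows. Bone marrow-derived macrophages (BMDMs) of wild type C57BL/6 mice, labelled as 6-8 weeks of age, were studied by RNA-seq in 9 libraries. All cells had been differentiated for 7 days with M-CSF at 10 ng/mL. M0 macrophages (n = 3) received nothing further, M1 macrophages (n = 3) received LPS at 100 ng/mL with IFN-γ at 20 ng/mL for 12 hours, and M1 + PBM macrophages (n = 3) received the same induction with photobiomodulation (PBM). PBM was near-infrared light of 808 nm at 6 mW/cm2 for 7 minutes, on a schedule of every 12 hours that began as LPS and IFN-γ were added. RNA was taken 12 hours after PBM. The study describes the RNA-seq experiment as 3 independent repeats, but whether the 3 replicates of a group came from separate mice or cultures is not stated. The p-values below therefore measure the spread between these libraries.

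Chemokines are small secreted proteins that guide leukocytes along gradients. CXCL9, CXCL10 and CXCL11 draw activated T cells and NK cells that carry CXCR3. In macrophages their genes are switched on through the IFN-γ receptor and its kinases JAK1 and JAK2, and Cxcl10 is also switched on by LPS through TLR4, the adaptor TRIF, IRF3, NF-κB and secreted type I interferon. CXCL16 differs in being made as a membrane protein that also takes up oxidised lipoprotein, and the metalloproteases ADAM10 and ADAM17 release it as a soluble ligand of CXCR6. In C57BL/6 mice the coding frame of Cxcl11 is broken, and the GENCODE annotation lists it as a polymorphic pseudogene, so its values are those of a transcript and not of a chemokine. Where CXCR3 ligands are counted below, Cxcl11 is included by name only.

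Cxcl9 (ENSMUSG00000029417), Cxcl10 (ENSMUSG00000034855) and Cxcl11 (ENSMUSG00000060183) lie on the minus strand of chromosome 5, while Cxcl16 (ENSMUSG00000018920) lies on the minus strand of chromosome 11. RefSeq promoter sequences on GRCm38.p6 were at hand for Cxcl9 and Cxcl10, 2 of the 4 genes. They are shown because both hold matches to motifs of factors that LPS and IFN-γ activate, in different arrangements. Each is the 250 bases before the annotated start, read 5′ to 3′ on the minus strand, from chr5:92328080-92328329 for Cxcl9 and chr5:92348890-92349139 for Cxcl10, with matches to the motifs below in capitals.
Cxcl9: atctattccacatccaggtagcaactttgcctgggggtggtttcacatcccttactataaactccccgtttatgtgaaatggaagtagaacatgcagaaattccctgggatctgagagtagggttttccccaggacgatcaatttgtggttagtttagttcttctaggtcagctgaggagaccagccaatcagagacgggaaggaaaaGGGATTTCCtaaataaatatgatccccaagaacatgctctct
Cxcl10: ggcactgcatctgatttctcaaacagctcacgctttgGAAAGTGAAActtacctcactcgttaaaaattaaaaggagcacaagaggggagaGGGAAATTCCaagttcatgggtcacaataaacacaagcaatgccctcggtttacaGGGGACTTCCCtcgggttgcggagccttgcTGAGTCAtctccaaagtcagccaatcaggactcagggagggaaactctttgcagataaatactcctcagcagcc

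Both strands were searched for 5 motifs, and positions count back from -1 at the base before the start. The interferon-stimulated response element ISRE (GAAA, any 2 bases and GAAA again), bound by IRF proteins, matched Cxcl10 at -213 to -204 and had no match in Cxcl9. It was present in 2.98% of the 32851 promoters of the same length. A 9-letter NF-κB core (GGGANTTCC), found in 1.43% of promoters, matched Cxcl9 at -42 to -34 and Cxcl10 at -103 to -95. The longer NF-κB consensus, found in 7.25% of promoters, matched only Cxcl10 of the pair, at -159 to -150 and at overlapping positions from -104 to -94 that contain the 9-letter core. The AP-1 motif (TGAGTCA, 4.46% of promoters) matched Cxcl10 at -74 to -68. No match to the IFN-γ-activated site GAS (TTCNNNGAA, 7.02% of promoters) was present in these windows, which says only that those letters are not in them. The longest stretch that the windows share is CAGCCAATCAG, 11 bases around a CCAAT box, which begins at -68 in Cxcl9 and -57 in Cxcl10 and is found in 0.399% of promoters. These matches describe letters and were chosen after the sequences were seen.

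**Figure D1:**
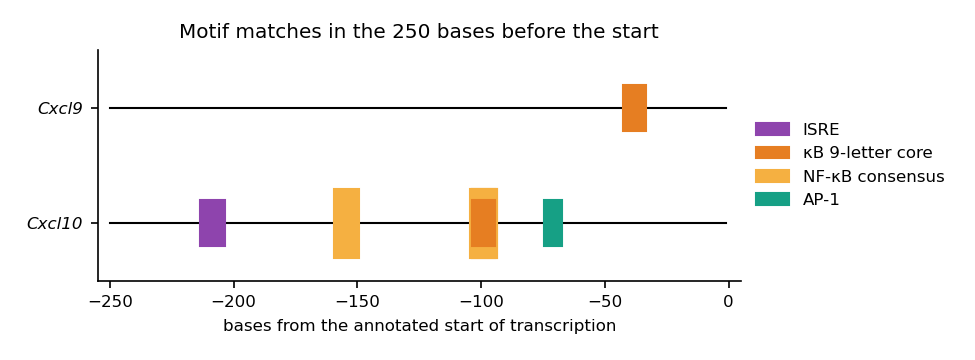
Motif matches in the 250 bases before the start of Cxcl9 and Cxcl10, with the x axis giving bases from the annotated start of transcription and coloured blocks giving each match. Cxcl10 holds an ISRE, NF-κB and AP-1 matches between -213 and -68, whereas Cxcl9 holds a single NF-κB core at -42 to -34.

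Values are FPKM, fragments per kilobase of transcript and per library size, which can be set side by side between genes because they are per length. The depth estimated from the values was 30880000 to 41990000 fragments per library. Macrophage markers were high in all 9 libraries, with a summed FPKM of 5499 to 10341 over 8 genes, while all 7 dendritic cell markers and all 6 erythroid markers stayed under 1. Most of the macrophage sum was Lyz2, at 3459 to 8773 FPKM, whereas Mertk was at 14.4 to 45.0. M0 replicate 3 stood apart from the other M0 libraries. Its summed FPKM over 8 stromal and endothelial markers was 191 against 7.07 and 5.81, and its Col1a1, the main fibrillar collagen, was 123 against 4.44 and 3.44. All differences from M0 are therefore given with and without it, and its part in the results was not tested. M1 replicate 2 held hepatocyte transcripts, with a summed FPKM of 18.0 over 6 markers against at most 3.61 in any other library, and Alb, which encodes albumin, was at 9.01 there and at 0 in the other 8. The changes without it are given below. The M0 libraries were deposited in a table of their own, so M0 levels are set beside the others as a description without a test. Any difference between the 2 tables cannot be told apart from induction.

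In resting macrophages Cxcl16 was the only member of the set expressed at more than a few FPKM in every library. Cxcl16 was at 28.5, 22.4 and 40.1 FPKM in M0 replicates 1 to 3, a mean of 30.3 ± 9.01 (SD, n = 3). Cxcl10 was at 0.491, 0.154 and 16.1 FPKM, and Cxcl9 was listed at 0 and then at 0.0195 and 3.51. Both CXCR3 ligands were thus nearly silent in replicates 1 and 2 and clearly present in replicate 3. Cxcl11 was listed at 0, 0.0155 and 0.00958 FPKM, at most about 2.02 fragments in any M0 library, and did not share the rise in replicate 3.

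The excess in M0 replicate 3 was sorted by the kind of gene. On the log2(FPKM + 1) scale its level exceeded the higher of the other M0 libraries by 3.52 for Cxcl10, by 2.15 for Cxcl9 and by 0.48 for Cxcl16, while for Cxcl11 the margin was -0.0085. A margin of at least 1 was found for 2 of the 4 genes, against 2.47% of 13915 rows (those reaching an FPKM of 1 in 3 or more of the 9 libraries). The same margin was reached by 8 of 8 genes induced by type I interferon, 10 of 16 other genes induced by IFN-γ, 3 of 11 genes of the IFN-γ receptor pathway and 5 of 13 NF-κB components. It was also reached by 3 of 6 other CXC chemokines, 2 of 11 genes of the TLR4 and type I interferon pathway and 2 of 8 macrophage markers. Of the stromal genes in that set 4 of 4 reached it, and of the housekeeping genes 0 of 6. Transcripts of several kinds were therefore high together in that library. Ifnb1, which encodes interferon β, was listed at 0 in all 3 M0 libraries. How these levels arose was not tested.

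LPS with IFN-γ was accompanied by higher levels of all 4 transcripts. In bulk libraries more RNA per cell and more cells expressing a gene cannot be told apart. Cxcl10 was at 397, 313 and 523 FPKM in M1 replicates 1 to 3 (411 ± 106, SD, n = 3), and the lowest of these was 19.4 times the highest M0 value. Among all rows of a library it ranked 71, 93 and 46 by FPKM in the 3 M1 libraries, after ranks of 16556, 19566 and 2399 in M0. Cxcl10 had become one of the most abundant transcripts of the cells. Cxcl9 was at 10.1, 7.38 and 28.9 FPKM (15.5 ± 11.7) and Cxcl11 was at 9.96, 6.63 and 34.5 FPKM (17.0 ± 15.2), so that both reached levels more than an order of magnitude below Cxcl10. Cxcl16 was at 68.0, 95.2 and 59.3 FPKM (74.2 ± 18.8), and its lowest M1 value was 1.48 times its highest M0 value.

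As differences of the mean log2(FPKM + 1), a scale that understates the change of genes near 0, M1 exceeded M0 by 7.03 for Cxcl10, 3.83 for Cxcl11, 3.08 for Cxcl9 and 1.27 for Cxcl16. Without M0 replicate 3 the differences were 8.26, 3.83, 3.80 and 1.49, and without M1 replicate 2 they were 7.21, 4.29, 3.45 and 1.08. The median of all 13915 rows in this comparison was -0.34, and after median-of-ratios scaling, which brings that median to -0.0073, the difference of Cxcl16 was 1.70. All 4 genes were higher without overlap between the groups, as were 15.6% of all rows. A difference of at least 1 was likewise found for 4 of 4 genes and for 8.21% of rows, and one of at least 3 was found for the 3 CXCR3 ligands and for 1.65% of rows. With any 1 library left out, the M1 difference of Cxcl9 ran from 2.54 to 3.80, so it did not always reach 3. Those of Cxcl10 and Cxcl11 stayed at 6.32 and 3.18 or more. The M1 + PBM libraries lay above M0 in the same manner, by 6.68 for Cxcl10, 3.45 for Cxcl11, 3.15 for Cxcl9 and 1.41 for Cxcl16, or by 7.91, 3.45, 3.87 and 1.63 without M0 replicate 3. Here too all 4 genes were higher without overlap, against 15.9% of rows, all 4 reached a difference of at least 1, against 7.47%, and the 3 CXCR3 ligands one of at least 3, against 1.34%. Cxcl9 again did not always reach 3, with 2.54 to 3.87 when 1 library was left out, while Cxcl10 and Cxcl11 stayed at 5.97 and 3.06 or more. Both comparisons use the same M0 libraries.

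**Figure D2:**
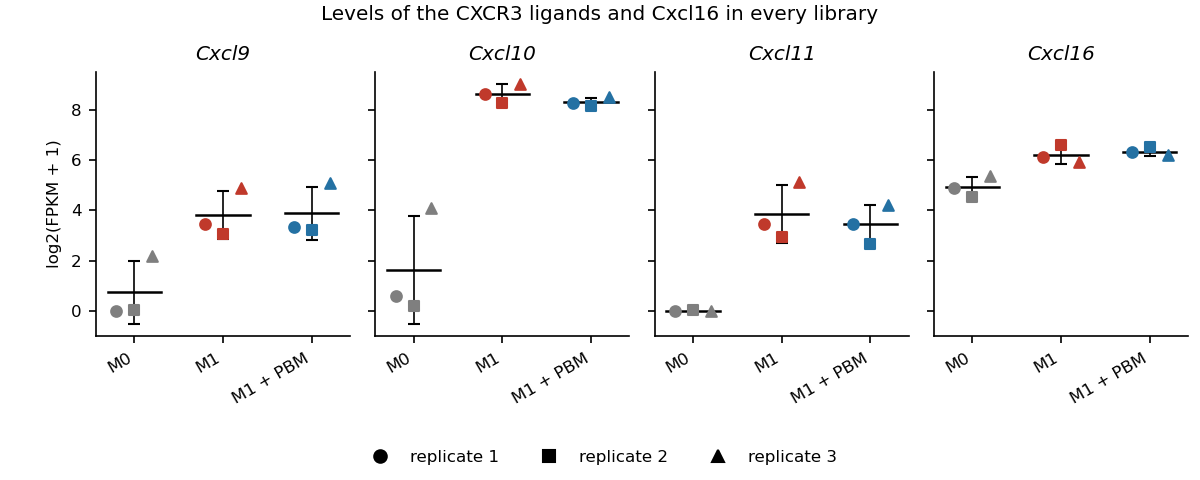
Level of each gene in every library as log2(FPKM + 1), with the symbols giving replicates 1 to 3 and the line and bar giving the mean ± SD of each group (n = 3). All 4 genes lie higher in M1 and M1 + PBM than in M0, M0 replicate 3 lies above the other M0 libraries for Cxcl9 and Cxcl10, and the M1 and M1 + PBM points overlap for every gene.

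The make-up of the set differed between M0 and the induced libraries. Cxcl16 held 98.3% and 99.2% of the summed FPKM of the 4 genes in M0 replicates 1 and 2, and 67.2% in replicate 3, where Cxcl10 and Cxcl9 held the rest. In M1 the share of Cxcl10 was 81.8%, 74.1% and 81.0%, and that of Cxcl16 was 14.0%, 22.6% and 9.18%. In M1 + PBM the share of Cxcl10 was 75.7%, 72.9% and 74.6%, and that of Cxcl16 was 19.5%, 23.5% and 14.9%. Cxcl10 thus dominated both induced groups, and its shares in the 2 groups overlapped.

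By mean FPKM the order in M0 was Cxcl16, Cxcl10, Cxcl9 and Cxcl11, and only the first step, from Cxcl16 to Cxcl10, was free of overlap between libraries. In M1 the order was Cxcl10, Cxcl16, Cxcl11 and Cxcl9. The first gene stood 5.54 times above the second and the second 4.35 times above the third, both without overlap, while Cxcl11 and Cxcl9 could not be ordered, since Cxcl11 was the higher in only 1 of 3 libraries. In M1 + PBM the order was Cxcl10, Cxcl16, Cxcl9 and Cxcl11, with steps of 3.92 and 4.77 times that were again free of overlap and a last step that was not.

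**Figure D3:**
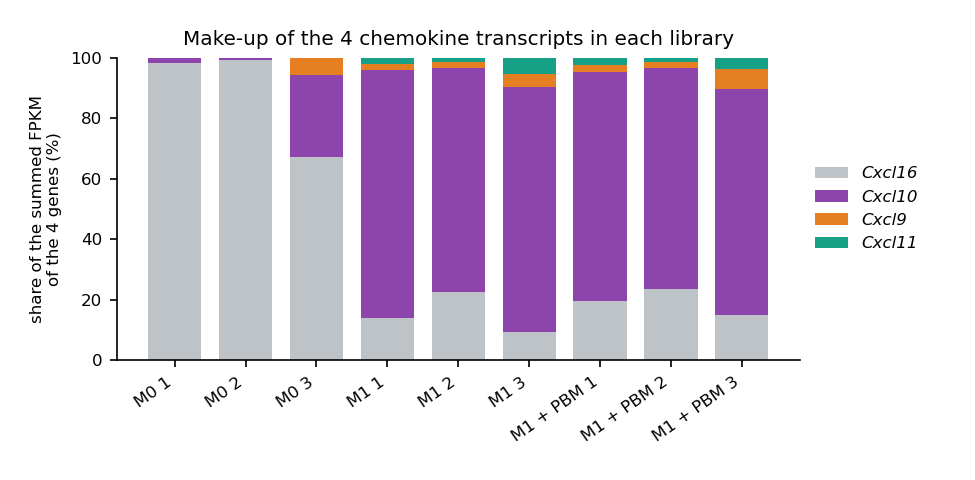
Share of each gene in the summed FPKM of Cxcl9, Cxcl10, Cxcl11 and Cxcl16, in percent, with 1 bar per library. Cxcl16 makes up 67.2% to 99.2% of the bars in M0, and Cxcl10 makes up 72.9% to 81.8% of the bars in M1 and M1 + PBM.

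The effect of PBM on the chemokines of M1 macrophages was examined next. None of the 4 genes passed the thresholds that the study set for differential expression, a p up to 0.05 and a log2 fold change of 1 or more in size, applied here to the unadjusted p of limma. They were passed by 0.261% of the 12238 rows tested, 0.237% as lower and 0.0245% as higher. None had an unadjusted limma p of at most 0.05, against 4.44% of rows (1.45% lower and 2.99% higher), and none had an adjusted p under 0.05, against 0.00817% of rows. For each gene the M1 and M1 + PBM libraries overlapped, whereas 8.51% of rows were higher and 2.52% were lower without overlap. The size of the intervals differed widely between the genes, as described below.

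Cxcl10, the most abundant of them, was at 306, 282 and 363 FPKM in M1 + PBM replicates 1 to 3 (317 ± 41.7, SD, n = 3), or 77.1% of the M1 mean. It was lower in all 3 replicate pairs, by log2 changes of -0.38, -0.15 and -0.53, a pattern shared by 10.1% of rows, while 25.5% were higher in all 3. These pairs follow the replicate number, a pairing inferred from these data and not stated by the labels. All paired and blocked values here rest on it. The log2 fold change was -0.35 (SE 0.21, 95% interval -0.85 to 0.15), with an unadjusted limma p of 0.140 and an adjusted p of 0.90. The exact permutation p was 0.2, where 3 against 3 libraries cannot give less than 0.1. With the replicate number as a block the SE was 0.10, the interval was -0.61 to -0.090, and the unadjusted limma p was 0.0186, a level reached by 8.07% of rows in that fit and by 3.24% of rows as lower. The adjusted p with the block was 0.58, and it lay between 0.54 and 0.99 over the 13 alternatives. In the blocked fit Cxcl10 was thus lower by less than 1 log2 unit at the unadjusted level only. Leaving out M1 replicate 2 also took it to an unadjusted limma p of 0.0323, with a log2 fold change of -0.53. That library held hepatocyte transcripts and was also the lowest of the M1 libraries for Cxcl10. The study's thresholds then called 67 rows, against 32 with no library left out. The block and this setting were the only 2 of 13 alternatives with an unadjusted limma p of at most 0.05. Without M1 replicate 3, the highest of the M1 libraries, the log2 fold change of Cxcl10 was -0.16.

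Cxcl9 was at 9.12, 8.21 and 33.4 FPKM in M1 + PBM (16.9 ± 14.3, n = 3), and its libraries interleaved with those of M1. Its log2 fold change was 0.068 (SE 0.66, 95% interval -1.51 to 1.64), with an adjusted limma p of 0.98 and an exact permutation p of 0.9. The changes within the replicate pairs were -0.14, 0.14 and 0.21. They lay much closer together than the libraries themselves, and with the replicate block the interval narrowed to -0.19 to 0.33, so that log2 fold changes of -1 and 1 lay outside it. The sign itself did not hold, since the value was -0.0045 after median-of-ratios scaling, -0.31 when M1 replicate 2 was left out and -0.54 without M1 + PBM replicate 3.

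Cxcl11 was at 10.0, 5.41 and 17.8 FPKM in M1 + PBM (11.1 ± 6.27, n = 3), 65.1% of the M1 mean. The log2 fold change was -0.39 (SE 0.64, 95% interval -1.92 to 1.15), with an adjusted limma p of 0.93 and an exact permutation p of 0.7. Within the pairs the changes were 0.0066, -0.25 and -0.92, so the lower mean came mainly from replicate 3, where 34.5 FPKM in M1 stood against 17.8 in M1 + PBM. Without M1 replicate 3 the log2 fold change was 0.27, and without M1 replicate 2 it was -0.84. The blocked interval was -0.89 to 0.12, with an unadjusted limma p of 0.105.

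Cxcl16 was at 78.7, 90.9 and 72.5 FPKM in M1 + PBM (80.7 ± 9.36, n = 3). These values all lay inside the range of the M1 libraries. The log2 fold change was 0.14 (SE 0.19, 95% interval -0.32 to 0.61), with an adjusted limma p of 0.91 and an exact permutation p of 0.5. With the replicate block the interval was -0.12 to 0.40 and the unadjusted limma p was 0.212. Without M1 replicate 2 the log2 fold change was 0.34.

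**Figure D4:**
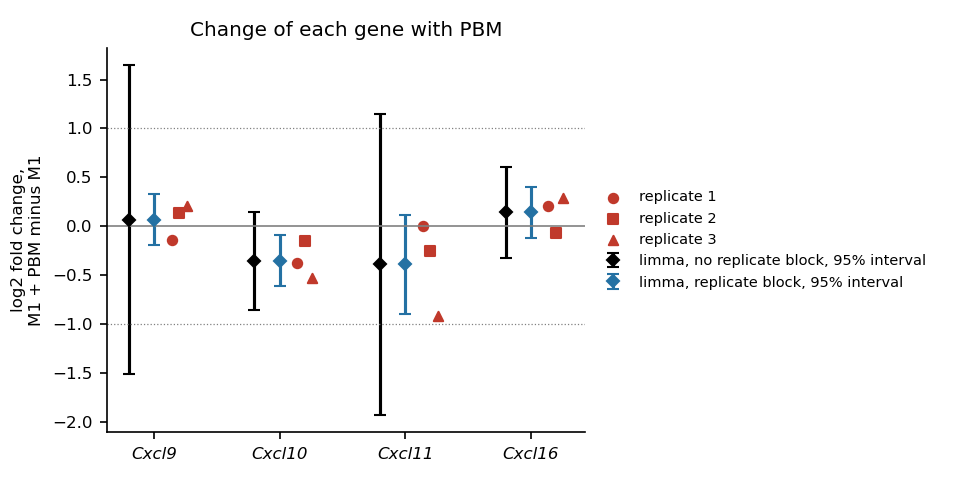
Log2 fold change of each gene between M1 + PBM and M1, with diamonds and bars giving the limma estimate and its 95% interval without (black) and with (blue) the replicate block, and red symbols giving the change within each replicate pair. Only the blocked interval of Cxcl10 (-0.61 to -0.090) lies clear of 0, and no estimate reaches the dotted lines at -1 and 1.

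Much of the spread within the groups followed the replicate number. Cxcl9 in replicate 3 was 3.30 times the mean of replicates 1 and 2 in M1 and 3.86 times in M1 + PBM. Cxcl11 in replicate 3 was 4.16 and 2.31 times that mean, and Cxcl10 was 1.47 and 1.24 times. The CXCR3 ligands were therefore all highest in replicate 3 of both groups, as were 19% of the rows tested. Cxcl9 and Cxcl11 exceeded both other replicates by at least 0.5 on the log2(FPKM + 1) scale in both groups, which 1.32% of rows did. Cxcl16 went the other way and was lowest in replicate 3 of both groups, at 0.726 and 0.854 times the mean of the others, as were 24.6% of rows. Of 6 lists of markers of other cells, the neutrophil, dendritic cell and stromal sums were also highest in replicate 3 of both groups, while the lymphoid, erythroid and hepatocyte sums were highest in replicate 2 of M1. The summed FPKM of 8 neutrophil markers was 19.6, 8.94 and 28.1 in M1 and 6.44, 9.47 and 15.0 in M1 + PBM, with the defining markers Ly6g and S100a9 at 0 in every library. Nearly all of it was S100a8, at 16.7, 6.90 and 27.2 in M1 and 4.94, 6.94 and 14.5 in M1 + PBM, whereas Camp was lowest in replicate 3 of both groups. That of 7 dendritic cell markers was 0.672, 0.711 and 1.23 in M1 and 0.432, 0.431 and 0.987 in M1 + PBM. The sum over the 8 stromal and endothelial markers was 15.0, 13.6 and 17.2 in M1 and 23.5, 6.85 and 29.6 in M1 + PBM. These sums were small beside those of the macrophage markers, and their part in the levels of the chemokines was not tested.

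Ratios between the genes within a library were compared to ask whether the members responded differently to PBM. The FPKM of Cxcl10 was 5.83, 3.29 and 8.82 times that of Cxcl16 in M1, and 3.88, 3.10 and 5.01 times in M1 + PBM. The ratio was lower with PBM in all 3 pairs, by log2 differences of -0.59, -0.085 and -0.82, yet the groups overlapped, and the mean difference of -0.50 had an exact permutation p of 0.4. The ratio of Cxcl9 to Cxcl10 was higher with PBM in all 3 pairs, by 0.22, 0.31 and 0.74, with a mean difference of 0.42 and an exact permutation p of 0.5. For Cxcl9 over Cxcl11 the difference was 0.48, with the lowest exact permutation p of the family, 0.3. Cxcl11 over Cxcl16 was lower in all 3 pairs, by -0.20, -0.22 and -1.24, with an exact permutation p of 0.6. All 6 pairs of genes were compared and each had an adjusted p of 0.9. Since 3 against 3 libraries cannot give an exact p below 0.1, no pair could have passed, and these p-values say nothing about whether the members responded alike.

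The receptors of these chemokines are carried mainly by lymphocytes and were low in the macrophages. Cxcr3 was at 3.55, 2.75 and 1.80 FPKM in M0, at 2.02, 2.41 and 0.902 in M1, and at 0.999, 1.46 and 0.388 in M1 + PBM. It was lower with PBM in all 3 pairs, although the groups overlapped, with a log2 fold change of -0.51 (SE 0.29) and an unadjusted limma p of 0.126. With the replicate block that p was 0.00327, and the adjusted p was 0.58. Cxcr6, the receptor of CXCL16, lay between 1.60 and 1.79 FPKM in these 6 libraries, with a log2 fold change of 0.039 and an unadjusted limma p of 0.658. The atypical receptors Ackr1 and Ackr3, which bind chemokines without G protein signalling, stayed under 1 FPKM and were not tested. T, NK and B cell markers stayed under 1 FPKM for 9 of 10 genes, with Cd4 the exception.

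Of the enzymes that trim or shed these chemokines, none of the 3 tested had an unadjusted limma p of at most 0.05 with or without the block. Over all rows 4.44% had, and 8.07% with the block, so none of 3 lies near that share. Adam10 was at 15.9 ± 2.41 FPKM in M1 and 18.4 ± 0.735 in M1 + PBM, with a log2 fold change of 0.21. Adam17 was at 44.6 ± 6.12 and 44.4 ± 7.13 FPKM, with a log2 fold change of -0.0096. Both sheddases of CXCL16 were thus well expressed alongside it. In M0 replicates 1 to 3 Adam10 was higher than in any induced library, at 39.2, 34.4 and 26.5 FPKM, while Adam17 was at 40.5, 35.4 and 35.9. Mmp9, a gelatinase that cleaves CXCR3 ligands, had a log2 fold change of -0.48 (SE 0.35), and Dpp4, the peptidase that truncates them, stayed under 1 FPKM.

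In the IFN-γ receptor pathway, 1 of 11 genes was lower and 1 was higher at an unadjusted limma p of at most 0.05, where 1.45% of rows were lower and 2.99% higher, and none had an adjusted p under 0.05. The lower one was Socs1, the feedback inhibitor of JAK kinases, at 14.1 ± 1.91 FPKM in M1 and 7.78 ± 0.876 in M1 + PBM, a log2 fold change of -0.78 (SE 0.13, unadjusted limma p 0.000727, adjusted p 0.81). The higher one was Ifngr1, the ligand-binding chain of the IFN-γ receptor, at 7.90 ± 0.715 and 12.4 ± 1.57 FPKM, a log2 fold change of 0.58 (SE 0.12, unadjusted limma p 0.00257, adjusted p 0.90). In both genes the M1 and M1 + PBM libraries did not overlap, nor did they in Pias1, an inhibitor of the pathway, which was higher with a log2 fold change of 0.17 and an unadjusted limma p of 0.121. Over all rows 2.52% were lower and 8.51% higher without overlap. Log2 fold changes were -0.26 for Jak2, -0.025 for Jak1 and -0.10 for Irf1, smaller in size than those of Socs1 and Ifngr1, and none of these passed the unadjusted threshold. Socs3, another feedback inhibitor, had a log2 fold change of -0.43 and passed only with the block, with an unadjusted limma p of 0.0270. The median over the 11 genes was -0.025, beside a median of 0.058 over all rows tested.

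The route from TLR4 through TRIF to type I interferon held no gene with an unadjusted limma p of at most 0.05 among the 11 tested, with or without the block. That count lies near the share of all rows at this level, 4.44% without and 8.07% with the block. Log2 fold changes of the 11 ran from -0.20 for Ticam1, which encodes TRIF, to 0.20 for Tlr4, around a median of -0.022. Ifnb1 stayed under 1 FPKM throughout, at 0.291, 0.374 and 0.676 in M1 and 0.401, 0.128 and 0.368 in M1 + PBM, and was not tested. Among the 13 NF-κB subunits, inhibitors and kinases, 11 had a log2 fold change below 0, as had 34.4% of all rows, and the median was -0.34. At an unadjusted limma p of at most 0.05, 3 of the 13 were lower and 0 higher, where 1.45% of rows were lower. These were Rela, the main activating subunit (-0.43, SE 0.12, unadjusted p 0.0113), Tnfaip3, the inhibitory deubiquitinase A20 (-0.63, SE 0.21, unadjusted p 0.0231), and Nfkbib, an IκB protein (-0.50, SE 0.20, unadjusted p 0.0413), each with an adjusted p of 0.90. Both an activator and inhibitors of NF-κB were thus among them. With the block the 3 lower genes were Rela, Tnfaip3 and Nfkb2, where 3.24% of rows were lower. The median was -0.19 without M1 + PBM replicate 3.

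The CXCR3 ligands were then set beside other genes of the same inducers. Of 16 other genes induced by IFN-γ, 13 had a log2 fold change below 0, as had 34.4% of all rows, with a median of -0.21 and a range from -1.38 for Nos2, the inducible nitric oxide synthase, to 0.22 for Ciita, the master regulator of MHC class II genes. Nos2 alone passed the study's thresholds. At an unadjusted limma p of at most 0.05, 2 of the 16 were lower (1.45% of rows), Nos2 and the guanylate-binding protein gene Gbp4, and 3 were lower without overlap (2.52% of rows), these 2 and Cd274, which encodes PD-L1. Gbp4 and Cd274 are named after their values were seen. The median was -0.063 without M1 + PBM replicate 3. Of 8 genes induced by type I interferon, 7 were below 0, with a median of -0.15 and a range from -0.32 for Oasl1 to 0.045 for Ifit3. Cxcl10, at -0.35, lay just below that range. The unadjusted limma p was at most 0.05 for 0 of the 8, against 4.44% of all rows. With the block 1 of the 8 was lower, Oasl1 with an unadjusted limma p of 0.0310, where 3.24% of rows were lower. Ifit1 and Isg15 were lower without overlap, as were 2.52% of rows. The median of the 8 was -0.021 without M1 replicate 3, -0.063 with quantile normalization and -0.093 without M1 + PBM replicate 2.

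Among the other CXC chemokines, Cxcl1, Cxcl2 and Cxcl3 had the lowest log2 fold changes. Of the 11 listed, 5 were expressed enough to be tested, all 5 had a log2 fold change below 0, and 3 were called lower by the study's thresholds, where 0.237% of rows were. These 3 genes encode ligands that attract neutrophils, and Cxcl1, Cxcl3 and Cxcl5 are named here after their values were seen. Cxcl2 was lowest, at 102 ± 52.9 FPKM in M1 and 28.2 ± 20.7 in M1 + PBM, a log2 fold change of -1.96 (SE 0.60, unadjusted limma p 0.0149, adjusted p 0.90). The platelet chemokine Pf4 had the smallest change, -0.36. Pf4 and Cxcl5 (-0.47) lay close to Cxcl10 and Cxcl11. The difference between the CXCR3 ligands and these 3 genes was not tested.

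**Figure D5:**
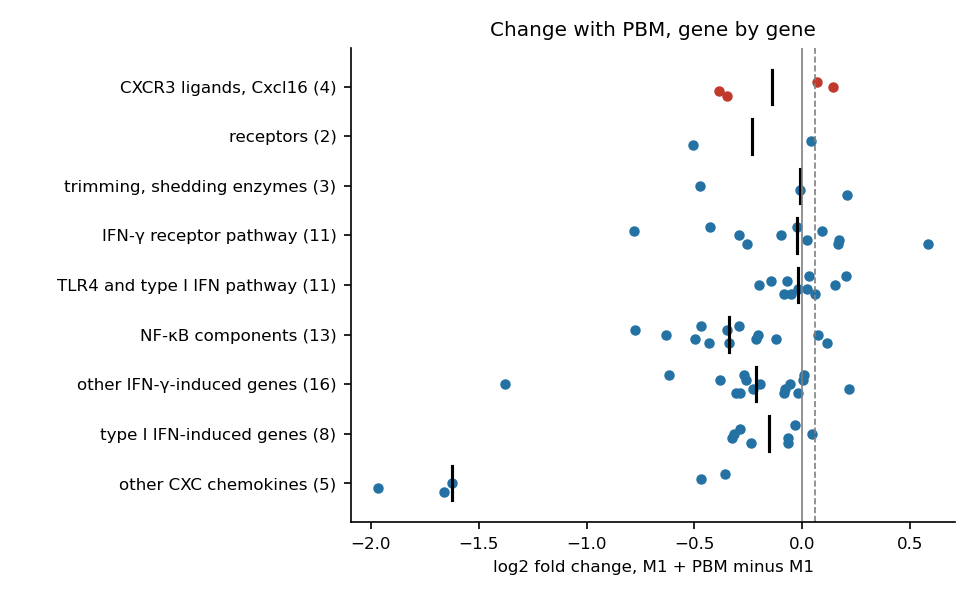
Log2 fold change between M1 + PBM and M1 for every tested gene of the set (red) and of the gene lists described (blue), with short black lines at each list's median, a dashed line at the median of all rows (0.058) and the number of genes tested in brackets. The 4 genes lie between -0.39 and 0.14, within the range of the other IFN-γ-induced genes, while 3 of the 5 other CXC chemokines lie below -1.

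Genes with the most similar course over the 9 libraries were found by the root mean square (RMS) difference of log2(FPKM + 1) after centring each gene on its mean, among 13915 rows. For Cxcl10 these were Ifit1 (RMS difference 0.18), Isg15 (0.23) and Rsad2 (0.30), antiviral genes induced by type I interferon, while the spread of Cxcl10 itself was 3.39. Ifit1, for example, was at 1.02, 0.554 and 18.3 FPKM in M0 and at 423, 431 and 518 in M1, and so shared the high level in M0 replicate 3. The nearest of the other CXCR3 ligands, Cxcl11, ranked 158 by likeness to Cxcl10, with an RMS difference of 1.88. This measure is not scaled for the size of the step from M0, so the rank depends partly on abundance. That step in M1 was 7.03 for Cxcl10 and 3.83 for Cxcl11, and 8.22 and 6.94 with a pseudocount of 0.1.

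For Cxcl9 the nearest genes were the chemokine Ccl8 (0.38), Glipr2 (0.40) and the membrane protein gene Ms4a6b (0.46), and Cxcl11 ranked 62 at 0.71. Ccl8 was listed at 0, 0 and 1.93 FPKM in M0 and was at 7.40, 8.00 and 16.3 in M1, and like Cxcl9 it was highest in replicate 3 of each group. Cxcl11 was most like the nucleoside transporter gene Slc28a2 (0.32), the adaptor gene Scimp (0.33) and BC147527 (0.34), with Cxcl9 at rank 63. Slc28a2 was at 84.0, 51.4 and 250 FPKM in M1 and at 76.3, 64.8 and 94.8 in M1 + PBM, which repeats the high value of Cxcl11 in M1 replicate 3. Likeness over 9 libraries is a description, since all the genes share the same libraries and the step from M0.

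Cxcl16 was most like Mocs1, a gene of molybdenum cofactor synthesis (RMS difference 0.13), Zmynd15 (0.15) and Gas7 (0.16), with a spread of its own of 0.69. Zmynd15 overlaps Cxcl16 on the opposite strand. It was at 3.14, 1.83 and 3.65 FPKM in M0, at 8.46, 10.9 and 8.64 in M1 and at 9.25, 9.94 and 9.80 in M1 + PBM. The libraries are labelled as strand-specific, but whether the counting used strand is not stated in the sources used here, so reads of the overlapping stretch cannot be assigned with certainty. The same holds for Art3, which overlaps Cxcl10 and Cxcl11 on the opposite strand. Art3 lay between 0.0189 and 0.190 FPKM in M0 and between 0.878 and 1.93 in the other libraries, far below Cxcl10. No stretch of 31 bases was shared between the annotated transcripts of the 4 genes. With transcripts of other genes, Cxcl11 shared 88 of its 3790 such stretches and Cxcl9 shared 17 of 2964, so a small part of their reads may not be assigned with certainty, while Cxcl10 and Cxcl16 shared none.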

How the data were processed

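RNA-seq of 9 BMDM libraries was analysed. FPKM values were deposited by the authors as 2 tables, with M0 in one and the 6 M1 and M1 + PBM libraries in the other. The methods named Cufflinks methods for them. The submitters' processing notes name Bowtie 0.12.2 and mm9 without a role, while the row names match GENCODE release M21 and 320 rows carry the MSTRG form of StringTie, so no coordinates were taken from the tables. M0 was described without a test because its table is separate.

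Depth was estimated from the step between low FPKM values, of which 36.5% to 39.3% were whole multiples (tolerance 0.05 of a step, 10% if even), so no reads were recovered and no count test was run. M1 + PBM and M1 were compared with limma 3.58.1 in R 4.3.3 (eBayes with a trend) on log2(FPKM + 1), over the 12238 rows that reached an FPKM of 1 in 3 or more of the 6 libraries, with Benjamini-Hochberg adjustment over all rows. Two-sided exact permutation tests were run with scipy 1.17.1. The fit was tested on simulated data first.

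Same-numbered libraries of M1 and M1 + PBM deviated together from their group means (r across genes of 0.157, 0.469 and 0.462, against -0.491 to 0.0328 for different numbers). The numbers were therefore taken as pairs, a choice drawn from the same data, and a second fit took the replicate number as a block. Where r for the same number is positive, centring on group means by itself pushes r for different numbers down. Whether same-numbered libraries shared a mouse, culture or day is not stated.

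The 4 genes and all gene lists were chosen with earlier results of these data known. Named genes were the 4 genes, any gene of the receptor, enzyme, IFN-γ, TLR4 and NF-κB lists, the lowest and highest of the other lists, and the 3 most similar genes for each of the 4. A gene counted in the IFN-γ pathway list is not reported here by name. Other settings tried were the block, each library left out, quantile normalization, median-of-ratios scaling, a smaller pseudocount (0.1), eBayes with no trend, and either no filter on FPKM or a minimum mean of 5. For ratios between genes, the block was added after seeing the data.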

Additional observations from a re-analysis of the deposited data

How the results depend on the processing

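None of the 4 genes reached an adjusted p under 0.05 in any of the 13 alternatives. The sign of the Cxcl9 change with PBM turned with median-of-ratios scaling (-0.0045), without M1 replicates 1 (-0.10) or 2 (-0.31), and when M1 + PBM replicate 3 was left out (-0.54), that of Cxcl11 without M1 replicate 3 (0.27) or M1 + PBM replicate 2 (0.0027), and that of Cxcl16 without M1 replicate 3 (-0.0026). Leaving out 1 library gave log2 fold changes of -0.54 to 0.61 for Cxcl9, -0.53 to -0.16 for Cxcl10, -0.84 to 0.27 for Cxcl11 and -0.0026 to 0.34 for Cxcl16. Log2 ratio differences then ran from -0.12 to 0.81 for Cxcl9 over Cxcl10 (lowest without M1 + PBM replicate 3), 0.26 to 0.78 for Cxcl9 over Cxcl11, -0.80 to 0.65 for Cxcl9 over Cxcl16, -0.45 to 0.38 for Cxcl10 over Cxcl11, -0.87 to -0.16 for Cxcl10 over Cxcl16 and -1.25 to 0.29 for Cxcl11 over Cxcl16.

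The study's thresholds called 32 rows (29 lower, 3 higher), 75 with a pseudocount of 0.1 (52 lower, 23 higher) and 27 to 89 with 1 library left out, of which 67 was reached without M1 replicate 2, and 89 when M1 + PBM replicate 2 was left out. With the replicate block the log2 fold changes of the 4 genes were those of the unpaired fit (-0.35 for Cxcl10), and among them the block changed the side of the unadjusted threshold only for Cxcl10.

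Above M0, a pseudocount of 0.1 gave 5.22 in M1 and 5.29 in M1 + PBM for Cxcl9, and 6.94 and 6.53 for Cxcl11, and median-of-ratios scaling gave 1.70 in M1 for Cxcl16. List medians moved for the receptors with a pseudocount of 0.1 (-0.42) and no minimum FPKM (0.0057), for the enzymes with a mean FPKM of 5 (0.099, a setting that left no receptor to test), for the other CXC chemokines with no minimum FPKM (-0.24), and with median-of-ratios scaling for the IFN-γ pathway (-0.099) and the TLR4 route (-0.097). With 1 library left out they ran from -0.37 to 0.046 for the receptors, -0.13 to 0.098 for the enzymes, -0.088 to 0.030 for the IFN-γ pathway, -0.055 to 0.092 for the TLR4 route, -0.43 to -0.19 for NF-κB, -0.23 to -0.063 for the other IFN-γ-induced genes, -0.22 to -0.021 for the type I interferon-induced genes and -2.09 to -1.13 for the other CXC chemokines. The cause of these shifts was not tested.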
